A study of Mus musculus with 32 samples.

Results

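A set of 10 genes of nitrogen and sugar metabolism was followed through transcription, cisplatin damage and excision repair in 4 mouse organs. They were 6 genes of the urea cycle and its arginases (Cps1, Otc, Ass1, Asl, Arg1 and Arg2) and 4 genes of gluconeogenesis (Pcx, Pck1, Fbp1 and G6pc). The list was set by function, with earlier results of these data known. Each symbol was matched to 1 Ensembl gene, and all 10 members were found among the 25059 genes in the files. Of the 32 libraries, 16 were RNA-seq, 8 were Damage-seq and 8 were XR-seq, from kidney, liver, lung and spleen of female C57BL/6J mice aged 6 to 7 months. RNA-seq had 2 control and 2 cisplatin libraries per organ, and Damage-seq and XR-seq had 2 cisplatin libraries per organ and no control. Cisplatin was given once at 10 mg/kg into the peritoneum, control mice received saline, and injection at Zeitgeber time (ZT) 1 and death at ZT 5 are given by the methods, whereas the sample labels state 2 h. Nothing in the labels says whether libraries with the same number came from the same mouse, so the p-values below measure only the spread between these libraries.

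The urea cycle turns ammonia into urea. In the mitochondria of hepatocytes, CPS1 makes carbamoyl phosphate and OTC joins it to ornithine to form citrulline. In the cytosol ASS1 and ASL convert citrulline to arginine, and ARG1 splits arginine into urea and ornithine, while ARG2 is a mitochondrial arginase used outside the liver. Kidney has ASS1 and ASL as well and makes arginine for the rest of the body. Gluconeogenesis, which liver and the proximal tubule of the kidney carry out, runs through PCX (pyruvate to oxaloacetate), PCK1 (oxaloacetate to phosphoenolpyruvate), FBP1 (fructose 1,6-bisphosphate to fructose 6-phosphate) and G6PC (glucose 6-phosphate to glucose). Cisplatin links neighbouring guanines on a DNA strand. Damage-seq reads mark adducts still present, and XR-seq reads are the short oligomers that excision repair cuts out. RNA polymerase stalled at an adduct on the transcribed strand (TS) calls in transcription-coupled repair, while adducts on the non-transcribed strand (NTS) depend on global repair.

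In GRCm38 (mm10), the urea cycle genes were Cps1 at chr1:67123026-67231259 on the plus strand, Otc at chrX:10252305-10321024 on the plus strand, Ass1 at chr2:31470207-31520672 on the plus strand, Asl at chr5:130011258-130029247 on the minus strand, Arg1 at chr10:24915221-24927484 on the minus strand and Arg2 at chr12:79130777-79156301 on the plus strand. The gluconeogenesis genes were Pcx at chr19:4510472-4621752, Pck1 at chr2:173153048-173159273 and G6pc at chr11:101367561-101377903, all on the plus strand, and Fbp1 at chr13:62864753-62888282 on the minus strand. They differed in the number of possible adduct sites. On the TS, GG dinucleotides numbered 39.8 per kb in Cps1, the lowest of the members, and 86.7 per kb in Ass1, the highest, beside a median of 59.1 per kb over 18640 protein-coding genes. Values below are therefore given as reads per 1000000 reads on genes (CPM) per 1000 GG of the strand. They are relative to the reads of each library, so they do not compare the total amount of damage or repair between organs.

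To show what such sites look like, the first 150 bases of the longest coding exon are printed for Cps1 and Ass1 (the members with the fewest and the most sites per kb), for Arg1 (the gene whose strands differed most between organs) and for Pcx (called in every assay). The sequences are of GRCm38.p6, read 5′ to 3′ on the coding strand, and capitals mark runs of C, each of which is a run of G, the target of cisplatin, on the TS. They lie at chr1:67172656-67172805 for Cps1, chr2:31480975-31481124 for Ass1, chr10:24920648-24920797 for Arg1 and chr19:4618142-4618291 for Pcx.
Cps1: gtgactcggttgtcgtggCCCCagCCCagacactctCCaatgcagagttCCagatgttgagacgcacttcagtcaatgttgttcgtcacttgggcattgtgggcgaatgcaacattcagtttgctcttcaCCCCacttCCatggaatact
Ass1: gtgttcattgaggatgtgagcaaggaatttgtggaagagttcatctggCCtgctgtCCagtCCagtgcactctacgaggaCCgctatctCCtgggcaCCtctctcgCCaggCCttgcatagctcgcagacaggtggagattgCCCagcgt
Arg1: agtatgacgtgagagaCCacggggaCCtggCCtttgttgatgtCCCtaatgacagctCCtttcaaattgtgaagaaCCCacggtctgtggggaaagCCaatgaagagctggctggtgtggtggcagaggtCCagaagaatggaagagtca
Pcx: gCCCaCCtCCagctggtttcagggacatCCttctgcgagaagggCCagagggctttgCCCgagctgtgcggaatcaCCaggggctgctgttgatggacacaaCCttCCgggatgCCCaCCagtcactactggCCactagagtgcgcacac
In these 150 bases the TS held 11 GG in Cps1, 10 in Ass1, 10 in Arg1 and 15 in Pcx, and the NTS held 7, 10, 14 and 15.

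Reads on genes per library were 15619474 to 162270280 in RNA-seq, 10658675 to 59779770 in XR-seq and 1571167 to 6441367 in Damage-seq, so Damage-seq gave the least precise values for single genes. The 2 RNA-seq control libraries of lung, and those of spleen, differed by more than the sampling noise of reads but by far less than the other RNA-seq pairs. Their chi-square over degrees of freedom was 2.75 and 2.98, against about 1 for sampling noise alone and 39.3 to 349 for the other RNA-seq pairs. Being under the limit of 3, each of these control pairs was summed and counted as 1 sample in the tests. Damage-seq pairs had values of 1.43 to 3.11 per strand and XR-seq pairs 7.26 to 32.7. These pairs were not summed, so Damage-seq tests treat such close libraries as 2 samples. Hepatocyte markers (Alb, Apoa1, Ttr, Apoh) summed to between 66459 and 129043 CPM in the 4 liver libraries and to at most 348 CPM elsewhere, and proximal tubule markers summed to between 6011 and 9812 CPM in kidney. Spleen cisplatin replicate 1 stood apart: it had 348 CPM of hepatocyte markers and 114 CPM of adipocyte markers, against 0.0803 and 7.86 CPM in replicate 2, and acinar markers of the pancreas reached 1490 and 1122 CPM in the cisplatin pair against 15.8 and 14.6 CPM in the controls. In bulk tissue, fewer cells of a type cannot be told apart from less RNA per cell. A submitters' note says that the treatment labels of some RNA-seq libraries were exchanged and later corrected, and the corrected labels were used.

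In control liver the first steps of the urea cycle and its last step reached levels found in no other organ. The level of Cps1, which fixes the ammonia, was 811 and 751 RPKM (reads per kb of exon, scaled to reads on genes as CPM is) in the 2 liver controls, 0.9505 and 0.798 in kidney, 0.358 and 0.316 in lung, and 0.0930 and 0.0594 in spleen. Otc, which makes citrulline, had 129 and 132 RPKM in liver, 0.171 and 0.154 in kidney, 0.418 and 0.337 in lung, and 0.0609 and 0.0222 in spleen. Arg1, which releases urea, had 675 and 733 RPKM in liver, 0.929 and 1.06 in kidney, 0.892 and 0.880 in lung, and 0.464 and 0.439 in spleen. For all 3 genes the liver libraries stood alone, and those of kidney, lung and spleen were at most 1.06 RPKM.

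The middle of the cycle was shared between liver and kidney. Ass1, which joins citrulline to aspartate, had 908 and 1229 RPKM in liver, 452 and 602 in kidney, 14.2 and 12.1 in lung, and 18.9 and 18.3 in spleen. Asl, which releases arginine and fumarate, had 124 and 162 RPKM in liver, 42.5 and 43.3 in kidney, 4.03 and 4.24 in lung, and 4.43 and 4.52 in spleen. Liver was highest for both, kidney was next, and no organ's range overlapped the next one's. Arg2, the mitochondrial arginase, had another order, with 31.4 and 30.3 RPKM in kidney, 3.92 and 3.27 in lung, 0.778 and 0.990 in spleen, and 0.137 and 0.130 in liver, again with no overlap.

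The gluconeogenesis genes were high in both liver and kidney. Pcx, the entry from pyruvate, had 119 and 114 RPKM in liver, 83.3 and 122 in kidney, 45.2 and 43.2 in lung, and 1.86 and 1.66 in spleen. Kidney had 1095 and 1275 RPKM of Pck1, liver 408 and 347, lung 85.4 and 82.8, and spleen 0.670 and 0.124. Kidney and liver overlapped for Pcx and not for Pck1, and lung came next for both. Fbp1 had 882 and 823 RPKM in liver, 777 and 792 in kidney, 2.68 and 2.43 in lung, and 0.470 and 0.0554 in spleen. G6pc, the last step, had 216 and 152 RPKM in liver, 200 and 271 in kidney, 0.734 and 0.689 in lung, and 0.0856 and 0.00488 in spleen. Liver and kidney overlapped for G6pc and were close for Fbp1, and both organs were far above lung and spleen.

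**Figure D1:**
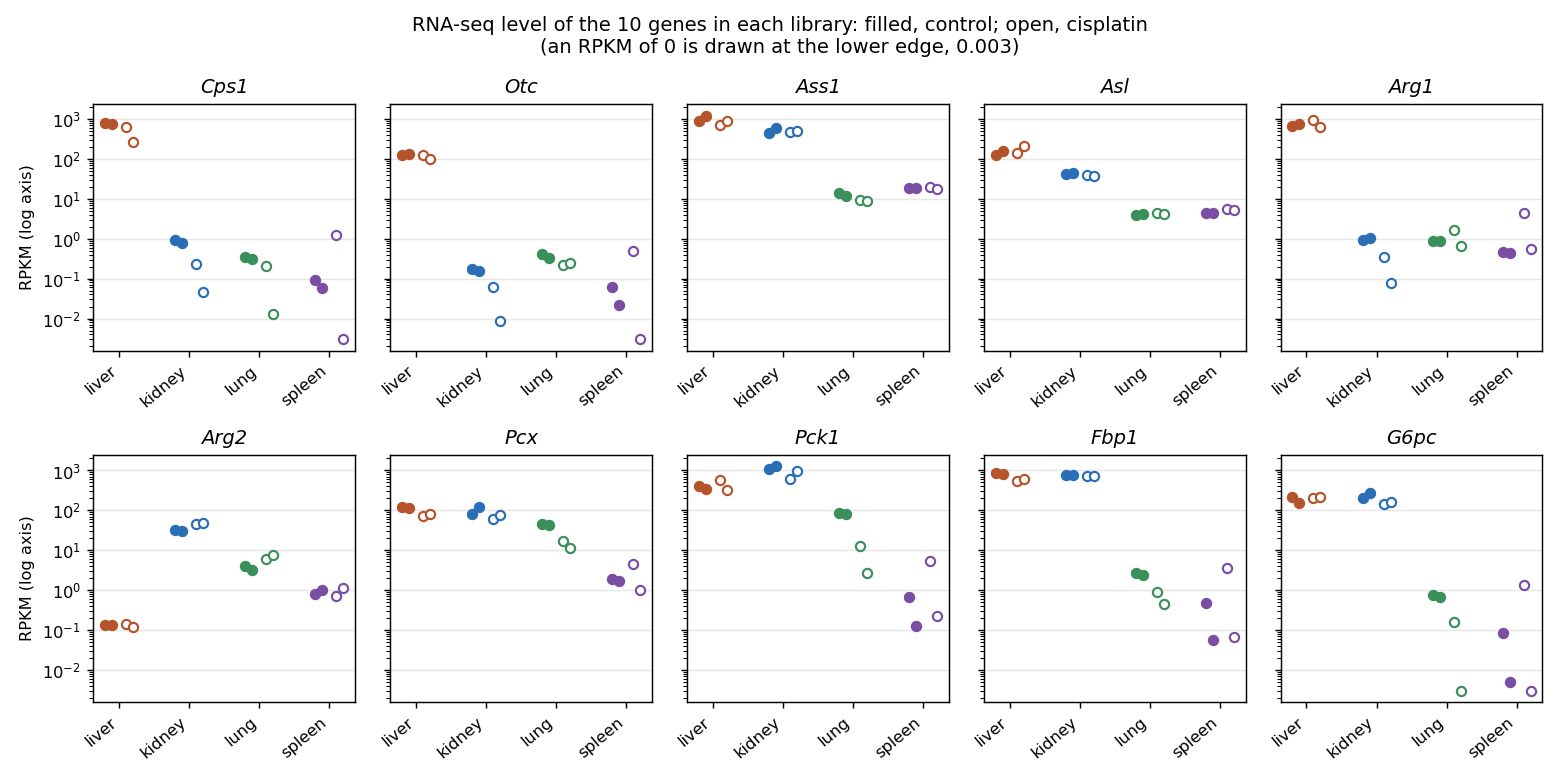
RNA-seq level (RPKM, log axis) of each of the 10 genes in the 2 control (filled) and 2 cisplatin (open) libraries of liver, kidney, lung and spleen. Cps1, Otc and Arg1 are high in liver alone, Arg2 is highest in kidney (31.4 and 30.3 RPKM in control) and lowest in liver, and the gluconeogenesis genes are high in both liver and kidney.

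Between liver and kidney controls, 6 of the 10 members passed edgeR's quasi-likelihood test with a log2 threshold of 0.4 and a limit of 0.05 on the Benjamini-Hochberg adjusted p, beside 31.8% of all 19100 genes tested. In liver 5 of the 6 urea cycle genes were higher, where 13.5% of all genes were called higher. The log2 difference was 10.69 ± 2.37 (SE) for Cps1 (adjusted p = 0.00475), 10.54 ± 1.56 for Otc (adjusted p = 0.000312) and 10.34 ± 1.21 for Arg1 (adjusted p = 5.67e-05). It was smaller for Asl, 2.64 ± 0.40 (adjusted p = 0.000449), and for Ass1, 1.91 ± 0.46 (adjusted p = 0.0106). Arg2 was lower in liver, by a log2 difference of -6.96 ± 0.35 (adjusted p = 3.49e-07). None of the 4 gluconeogenesis genes passed, with -0.78 ± 1.05 for Pck1, 0.50 ± 1.36 for G6pc, 1.00 ± 1.05 for Fbp1 and 1.05 ± 0.58 for Pcx, and their 95% intervals were wide (-3.10 to 1.54 for Pck1 and -0.23 to 2.33 for Pcx). Over the members the median log2 difference was 1.48, and over all genes it was -0.01. These fits scale libraries by TMM, and without that factor the median of all genes moved by -0.87 while the same 6 members passed in the same direction, with 1.02 for Ass1 and 1.74 for Asl. The direction of G6pc depended on that factor, being -0.35 without it, and Pcx and Fbp1 were then at 0.18 and 0.12. The call of Cps1 was lost without kidney control 1 (10.73) or 2 (10.65), and that of Ass1 without kidney control 1 (1.65) or liver control 2 (1.53).

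Against the mean of lung and spleen controls, liver differed in all 10 members, beside 47.6% of all genes, with 9 higher and Arg2 lower (-2.64 ± 0.33, adjusted p = 9.61e-05). Among the 9, the log2 difference ran from 4.84 ± 0.67 for Pcx (adjusted p = 0.000164) to 13.42 ± 2.59 for Cps1 (adjusted p = 0.00142). Kidney was higher than lung and spleen in 7 of 10 members and lower in none, beside 41.6% of all genes called (3821 higher and 4119 lower). Those were Ass1 (5.33), Asl (3.52), Arg2 (4.32) and the 4 gluconeogenesis genes, from 3.79 for Pcx to 10.86 for G6pc. Cps1, Otc and Arg1 did not pass in kidney.

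The genes around the pathways differed between liver and kidney as well. Of 9 tested partners of the urea cycle (among them mitochondrial carriers and enzymes that supply ammonia or the activator of CPS1), 6 were called higher in liver and none lower, with a median log2 difference of 1.70. Nags, whose product activates CPS1, was higher by 7.78 ± 0.56, and Gls2, the liver-type glutaminase, by 9.93 ± 0.53. Of 14 partners of gluconeogenesis, 6 were higher and 2 lower in liver (median 0.85). The serine dehydratase Sds (10.25 ± 0.56) and the tyrosine aminotransferase Tat (10.49 ± 1.26) were higher, and Fbp2, the muscle-type paralog of Fbp1, was lower (-7.33 ± 0.61), as was G6pc3, the widely expressed paralog of G6pc (-2.70 ± 0.35). Of 10 glycolysis genes, 3 were higher and 5 were lower, among them Hk1 (-4.10 ± 0.34). Of 16 regulators, 7 were higher and 2 lower, with the CCAAT/enhancer-binding protein gene Cebpa at 3.51 ± 0.33 and the coactivator gene Ppargc1a at -2.91 ± 0.34.

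After cisplatin no member was called in kidney, where 5.05% of 15471 genes were called (372 higher and 410 lower), although the levels of several separated. Cps1 RNA, low in kidney in any case, had 0.9505 and 0.798 RPKM in control and 0.231 and 0.0473 after cisplatin. Arg1 had 0.929 and 1.06 RPKM in control and 0.345 and 0.0758 after cisplatin, and Otc 0.171 and 0.154 against 0.0604 and 0.00884. In each of these 3 genes both cisplatin libraries lay below both controls, and these are few reads: 34 against 346 in total for Cps1. Such a position was held by 8 of the 10 members and by 32.1% of all genes tested, so it does not single out a gene. Arg2 was higher instead, with 31.4 and 30.3 RPKM in control and 44.7 and 48.4 after cisplatin, without overlap, as was the case above the controls for 24.3% of all genes.

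By the test in kidney, the log2 change was -2.79 ± 0.70 for Cps1 (adjusted p = 0.0888), -2.59 ± 0.95 for Otc (adjusted p = 0.21), -2.41 ± 0.74 for Arg1 (adjusted p = 0.145) and 0.66 ± 0.17 for Arg2 (adjusted p = 0.207). These 4 members had an unadjusted p under 0.05 in edgeR, as did 2937 of 15471 genes. DESeq2 called 1 member, Cps1, and 834 genes. With the replicate number as a block, edgeR called these 4, along with more of all genes than in the main fit. The labels tie that number to no mouse. Cps1 also passed in edgeR without kidney cisplatin 1 (-4.11), control 1 (-2.76) or control 2 (-2.86), and Arg1 without control 1 (-2.60). Hepatocyte markers in kidney summed to 173 and 254 CPM in control and to 101 and 99.4 CPM after cisplatin, and their part in the values of Cps1, Otc and Arg1 was not tested.

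The genes that kidney itself expresses at high levels showed smaller differences. Pck1 had 1095 and 1275 RPKM in control and 606 and 974 after cisplatin, G6pc 200 and 271 against 148 and 162, and Pcx 83.3 and 122 against 61.5 and 78.6. All of these cisplatin values lay below both controls, with log2 changes of -0.52 ± 0.28, -0.55 ± 0.23 and -0.50 ± 0.27 (adjusted p = 0.579, 0.457 and 0.601). Fbp1 had 777 and 792 RPKM in control and 727 and 720 after cisplatin, and Asl 42.5 and 43.3 against 39.8 and 37.6, which also did not overlap. Their log2 changes were -0.06 ± 0.16 and -0.09 ± 0.16. Ass1, with 452 and 602 against 474 and 501 RPKM, overlapped. The median log2 change was -0.51 over the members and -0.003 over all genes. Proximal tubule markers summed to 7525 and 9812 CPM in control and to 6011 and 6592 CPM after cisplatin, and their part in these values was not tested.

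Among the surrounding genes in kidney, Slc25a13, the mitochondrial aspartate-glutamate carrier that feeds ASS1, was the 1 of 9 tested urea cycle partners called. It fell from 45.2 and 43.9 RPKM in control to 16.2 and 18.0 after cisplatin, a log2 change of -1.32 ± 0.17 (adjusted p = 0.021). None of 13 gluconeogenesis partners or 10 glycolysis genes passed. Of 16 regulators, 2 rose and 3 fell. The nuclear receptor gene Nr4a1, an early-response gene that can drive gluconeogenic genes, rose by 2.99 ± 0.31 and Cebpb, a stress-responsive transcription factor gene, by 2.36 ± 0.25. The factor genes Klf15 and Ppara, both of fasting metabolism, and Insr, the insulin receptor gene, had log2 changes of -1.74 ± 0.24, -1.15 ± 0.18 and -1.11 ± 0.16.

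In liver no member and no other gene passed (percent called 0 of 13868 genes, with 1287 at an unadjusted p under 0.05 in edgeR and 188 called by DESeq2, none of them a member). Of the members 9 were tested, since Arg2 did not pass the filter on low counts. None of the 9 had an unadjusted p under 0.05. Cps1 had 811 and 751 RPKM in control and 644 and 261 after cisplatin, which did not overlap, and the spread of the cisplatin pair was wide, with a log2 change of -0.86 ± 0.49 and a 95% interval of -2.01 to 0.30. Both libraries lay below the control range for Pcx (74.1 and 80.9 RPKM against 119 and 114) and for Fbp1 (550 and 611 RPKM against 882 and 823). Their log2 changes were -0.54 ± 0.41 and -0.51 ± 0.44. Ass1 (696 and 893 RPKM after cisplatin) was also below both controls, at -0.39 ± 0.51. In all 5 of the 9 members lay below both controls, beside 18.0% of all genes. Adipocyte markers in liver summed to 12.5 and 60.5 CPM after cisplatin and to 1.44 and 1.42 CPM in control, macrophage markers to 427 and 116 against 216 and 164 CPM, and hepatocyte markers to 112272 and 126249 against 66459 and 129043 CPM, and their part in these values was not tested.

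Otc in liver had 128 and 99.2 RPKM after cisplatin, Asl 139 and 208, Arg1 952 and 640, Pck1 568 and 319, and G6pc 201 and 218. Only Otc lay below both of its controls, and the other 4 overlapped with theirs. Over the members tested the median log2 change was -0.20 and over all genes 0.03. No gene of the partner, glycolysis and regulator lists passed in liver. The difference between the responses of kidney and liver was called for no member, beside 0.00622% of 16075 genes (1 gene). It was -2.10 ± 0.84 for Cps1, -2.62 ± 0.76 for Otc and -2.78 ± 0.75 for Arg1, the 3 members with an unadjusted p under 0.05 in edgeR (adjusted p = 0.792, 0.51 and 0.477). Such an unadjusted p was held by 912 of the 16075 genes, and DESeq2 called 1 member, Arg1, and 130 genes.

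In lung cisplatin was followed by a fall of Pcx, the 1 member called, beside 2.09% of 18210 genes called and 1.96% called lower. Pcx had 45.2 and 43.2 RPKM in control and 17.0 and 11.4 after cisplatin, a log2 change of -1.63 ± 0.24 (edgeR adjusted p = 0.0367). Pck1 had 85.4 and 82.8 RPKM in control and 12.7 and 2.62 after cisplatin (-3.47 ± 0.73, adjusted p = 0.0829), and Fbp1 2.68 and 2.43 against 0.888 and 0.449 (-1.93 ± 0.47, adjusted p = 0.135). For all 3 the cisplatin pair lay below the control pair, as it did for 7 of the 10 members and for 33.0% of all genes. Adipocyte markers in lung summed to 616 and 606 CPM in control and to 149 and 60.1 CPM after cisplatin, with none of the 4 markers at 0, and lymphocyte markers to 226 and 231 against 68.7 and 51.1 CPM. Their part in the values of Pcx and Pck1 was not tested. With only 1 cisplatin library left, in a fit that takes its spread from all organs and so assumes that the lone libraries vary like the others, Pcx was at -1.92 without lung cisplatin 1 and -1.40 without cisplatin 2 and was not called, nor was it in that fit with both libraries (-1.64).

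Arg2 in lung had 3.92 and 3.27 RPKM in control and 6.15 and 7.73 after cisplatin (1.01 ± 0.30, adjusted p = 0.279), above both controls as it was in kidney, beside 34.2% of all genes above them in lung. Ass1 had 14.2 and 12.1 RPKM against 9.13 and 8.76 (-0.50 ± 0.19), and Asl 4.03 and 4.24 against 4.49 and 4.12. Cps1, Otc, Arg1 and G6pc were under 2 RPKM in every lung library. The median log2 change was -1.13 over the members and 0.03 over all genes, and Ppara was the 1 regulator of 15 called, falling from 3.29 and 2.61 RPKM to 0.662 and 0.736 (-2.00 ± 0.28, adjusted p = 0.032).

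In spleen most members were set apart by 1 library. No member was called, none had an unadjusted p under 0.05 in edgeR and DESeq2 called none, beside 0.181% of 17686 genes. Fbp1 had 0.470 and 0.0554 RPKM in control, 3.64 in cisplatin replicate 1 and 0.0674 in replicate 2. Pck1 had 0.670 and 0.124 RPKM in control and 5.28 and 0.224 after cisplatin, G6pc 0.0856 and 0.00488 against 1.35 and 0, Cps1 0.0930 and 0.0594 against 1.26 and 0, and Otc 0.0609 and 0.0222 against 0.487 and 0. In each case replicate 1 was the highest of the 4, the library with 348 CPM of hepatocyte markers, and the part of these markers was not tested. Without spleen cisplatin 2, Otc was at 3.78 and Fbp1 at 4.26 in the fit over all organs. Without spleen cisplatin 1 the change turned negative for Cps1 (-7.48), Otc (-6.08), Ass1 (-0.09), Pcx (-0.83), Pck1 (-0.45), Fbp1 (-1.50) and G6pc (-5.10). For Cps1, Otc and G6pc the remaining cisplatin library had 0 reads, which makes the fitted value depend on the prior count.

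Arg1 and Asl had both spleen cisplatin libraries above both controls, at 4.53 and 0.561 RPKM against 0.464 and 0.439 for Arg1, and at 5.61 and 5.19 RPKM against 4.43 and 4.52 for Asl (0.29 ± 0.18). Of all genes, 28.9% lay above both controls in spleen, and 5.92% of 14837 genes did so while below both in kidney, as Arg1 and Asl did. Ass1 (19.8 and 18.0 RPKM after cisplatin), Arg2 (0.723 and 1.12) and Pcx (4.56 and 1.01) overlapped with their controls.

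**Figure D2:**
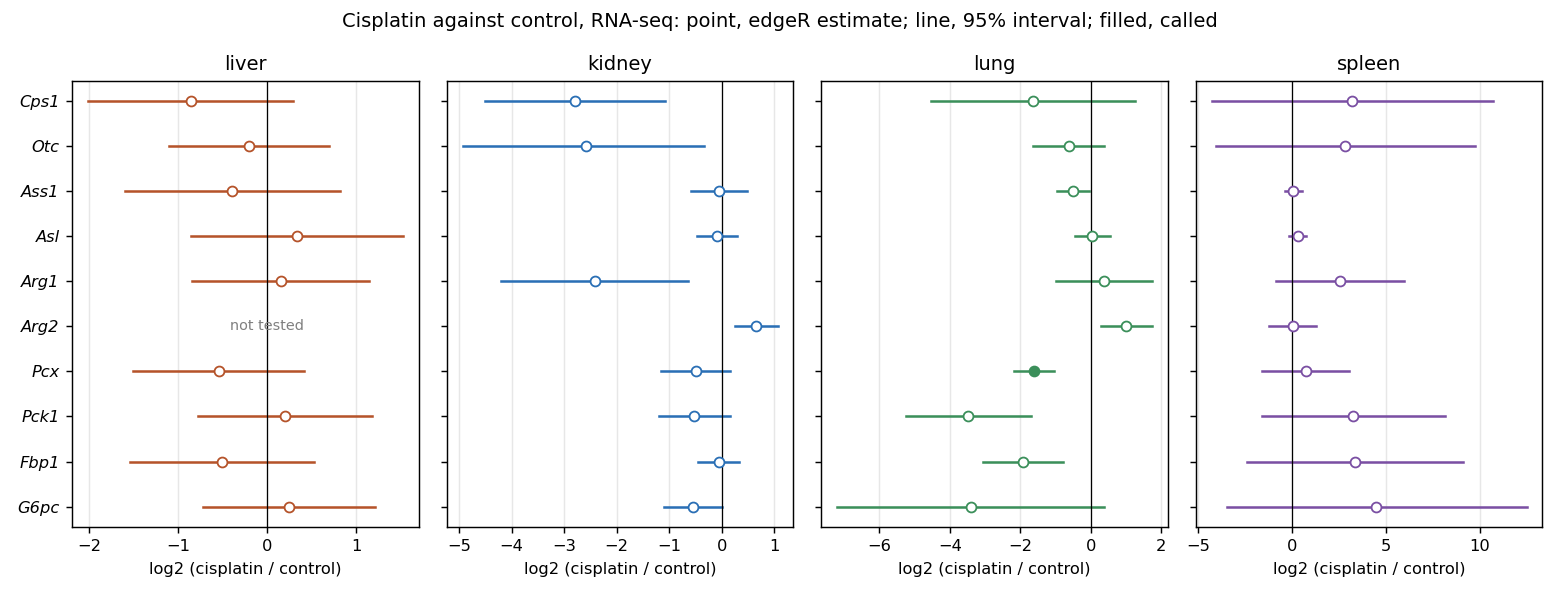
Log2 change of RNA-seq after cisplatin for the 10 genes in liver, kidney, lung and spleen, with the edgeR estimate (point), its 95% interval (line) and filled points for called genes. Pcx in lung (-1.63) is the one filled point, Arg2 was not tested in liver, and the intervals of Cps1, Otc, Pck1, Fbp1 and G6pc are widest in spleen. Each organ has an axis range of its own.

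Excision repair of the TS of Cps1, Otc and Arg1 was highest in liver, the organ with their highest RNA. XR-seq of the TS of Cps1 gave 14.6 and 13.3 CPM per 1000 GG in liver, 0.0126 and 0.125 in kidney, 0.105 and 0.103 in lung, and 0 and 0.0067 in spleen, from 0 and 1 reads there. The floor of 3 counts for the spleen library with none is 0.0653 CPM per 1000 GG. Otc gave 6.58 and 7.23 in liver, 2.99 and 3.38 in lung, 0.0327 and 0.345 in kidney, and 0.0283 and 0.0522 in spleen. Arg1 gave 21.1 and 27.6 in liver, 1.42 and 1.501 in spleen, 0.337 and 1.14 in lung, and 0.182 and 0.481 in kidney. Liver was alone at the top for the 3 genes, and Otc differed from the others by its repair in lung, where its RNA was at most 0.418 RPKM.

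The TS of Ass1 and Asl was repaired in all 4 organs. Ass1 gave 33.3 and 38.9 CPM per 1000 GG in liver, 31.2 and 33.0 in spleen, 28.6 and 33.9 in kidney, and 27.8 and 32.5 in lung. Asl gave 40.3 and 32.9 in spleen, 32.6 and 37.8 in kidney, 32.6 and 26.5 in lung, and 22.9 and 25.3 in liver. For Ass1 only liver and spleen, the first 2 in order, failed to overlap with their neighbour, by 33.3 against 33.0, although the RNA of the gene spanned 12.1 to 1229 RPKM over the control libraries and 8.76 to 893 RPKM after cisplatin. For Asl liver was lowest. Arg2 gave 10.0 and 13.5 in kidney, 0.647 and 2.28 in spleen, 0.782 and 1.35 in lung, and 0.930 and 1.07 in liver, with kidney alone at the top.

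Of the gluconeogenesis genes, Pcx gave 35.6 and 43.9 CPM per 1000 GG on the TS in liver, 22.5 and 16.2 in kidney, 9.32 and 10.3 in spleen, and 8.62 and 8.15 in lung, with no overlap between neighbours. Pck1 gave 41.4 and 45.5 in liver, 7.18 and 27.2 in kidney, 3.72 and 1.27 in spleen, and 0.0368 and 0.362 in lung. The order of Pck1 thus differed between assays: RNA was highest in kidney, also after cisplatin (606 and 974 RPKM against 568 and 319 in liver), and TS repair was highest in liver. Lung had 1 and 7 XR-seq reads on the TS, beside 12.7 and 2.62 RPKM after cisplatin and 85.4 and 82.8 in control. Fbp1 gave 17.5 and 28.2 in liver, 14.7 and 11.3 in kidney, 0.818 and 0.951 in lung, and 1.09 and 0.761 in spleen. G6pc gave 22.3 and 14.7 in kidney, 13.5 and 17.8 in liver, and at most 0.348 in lung and spleen, and kidney and liver overlapped.

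**Figure D3:**
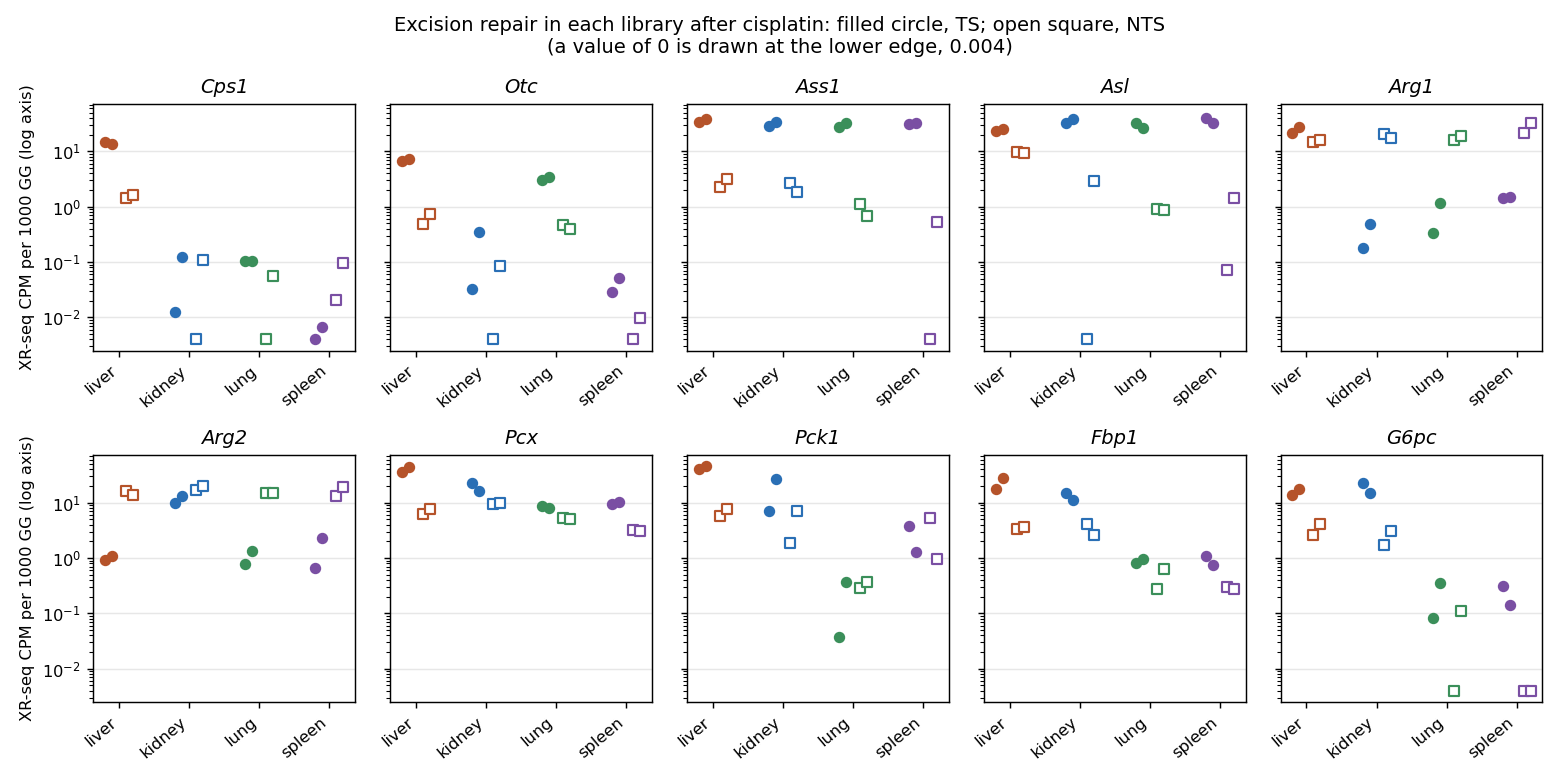
XR-seq level (CPM per 1000 GG, log axis) of each gene in the 2 libraries per organ after cisplatin, for the TS (filled circles) and the NTS (open squares). Ass1 and Asl have TS levels between 22.9 and 40.3 in all organs, Cps1 reaches 14.6 and 13.3 in liver alone, and the NTS lies above the TS for Arg1 in kidney, lung and spleen and for Arg2 in all organs.

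By edgeR's quasi-likelihood test against 0, TS repair differed between liver and kidney in 7 of 10 members, beside 46.4% of 19736 genes. Higher in liver were 5, beside 15.5% of all genes. They were Cps1 by a log2 difference of 7.48 ± 0.51 (adjusted p = 3.64e-07), Arg1 by 6.10 ± 0.79 (6.1e-05), Otc by 5.08 ± 0.65 (5.31e-05), Pcx by 1.04 ± 0.15 (0.000175) and Fbp1 by 0.81 ± 0.30 (0.0421). Arg2 (-3.55 ± 0.62, adjusted p = 0.00057) and Asl (-0.55 ± 0.17, adjusted p = 0.0216) were lower in liver. Ass1 (0.21 ± 0.13, 95% interval -0.07 to 0.49), Pck1 (1.33 ± 0.66) and G6pc (-0.24 ± 0.53) did not pass. The median was 0.93 over the members and -0.32 over all genes, and scaling by TMM or by DESeq2 moved the latter by 0.38 and 0.37, with Asl then not called (-0.17 and -0.16), Ass1 (0.58 and 0.60) and Pck1 (1.72 and 1.74) called, and G6pc at 0.12 and 0.13.

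Both smaller calls rested on single libraries. Asl was not called without kidney 2 (-0.44), liver 1 (-0.48) or liver 2 (-0.62), and Fbp1 not without kidney 2 (0.64), liver 2 (0.43) or either lung library (0.81 each). Without kidney 2, Pck1 (2.60) and Ass1 (0.34) were called.

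Against the mean of lung and spleen, liver differed in TS repair in 8 of 10 members, beside 51.7% of all genes. Cps1 (9.13 ± 0.44), G6pc (6.26 ± 0.55), Pck1 (6.06 ± 0.65), Fbp1 (4.69 ± 0.28), Arg1 (4.55 ± 0.53), Otc (4.16 ± 0.51) and Pcx (2.13 ± 0.13) were higher, and Asl was lower (-0.45 ± 0.15), which was lost without liver 1 (-0.37), liver 2 (-0.52), lung 1 (-0.37) or spleen 1 (-0.37) and under TMM or DESeq2 scaling. Without kidney 1, Ass1 was also called (0.21). Kidney was higher in 5 members, beside 32.0% of all genes called (3701 higher and 2611 lower). These members were Arg2 (3.20 ± 0.48), Pcx (1.09 ± 0.13), Pck1 (4.73 ± 0.65), Fbp1 (3.88 ± 0.27) and G6pc (6.51 ± 0.56). Another 2 were called with a kidney library left out, Cps1 without kidney 1 (2.34) and Otc without kidney 2 (-3.52).

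On the NTS no member was called between liver and kidney, beside 11.5% of 19637 genes. DESeq2 called 2 members and 3235 genes, and an unadjusted p under 0.05 in edgeR was held by 3 members and by 4609 of the 19637 genes. The 3 were Cps1, with 1.42 and 1.62 CPM per 1000 GG in liver against 0 and 0.109 in kidney, Otc, with 0.478 and 0.741 against 0 and 0.0832, and Pcx, with 6.21 and 7.74 against 9.41 and 10.0. None of the 3 overlapped, and the share of all genes without overlap was not counted. Against lung and spleen, liver was higher on the NTS in 7 members, beside 23.9% of all genes called (3861 higher and 830 lower). These members were Cps1 (5.17 ± 1.16), Ass1 (2.40 ± 0.62), Asl (3.43 ± 0.99), Pcx (0.80 ± 0.13), Pck1 (2.75 ± 0.79), Fbp1 (3.27 ± 0.49) and G6pc. G6pc had 88 and 110 NTS reads in liver, 20 and 55 in kidney, and 0, 3, 0 and 0 in lung and spleen, so no fold change is given. Of these, Pcx and Fbp1 were called whichever library was left out, whereas Cps1 was lost without liver 1 or 2 (5.27 and 5.09), Ass1 without liver 2 or lung 2 (2.16 and 2.26), G6pc without liver 2, Asl without either liver or lung library or spleen 1 (3.05 to 3.49), and Pck1 without either liver or lung library or spleen 2 (2.34 to 2.94). Over all genes the median log2 difference was 0.57, beside 0.80 for Pcx. TMM scaling moved that median by -0.48, and fewer members were then called.

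Kidney was higher than lung and spleen on the NTS in 4 members, beside 25.2% of all genes called (4384 higher and 555 lower). These members were Ass1 (2.12 ± 0.63), Pcx (1.28 ± 0.13), Fbp1 (3.21 ± 0.50) and G6pc. The call of Ass1 was lost without kidney 1 (1.81), lung 1 (2.33) or lung 2 (1.97). With TMM scaling, which moved the median of all genes by -0.70, 3096 genes were called in that comparison, 1385 higher and 1711 lower in kidney, against 4384 and 555 with reads on genes as library size.

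Within a library the strands can be compared directly. Per GG, the TS exceeded the NTS in 7 members in kidney and the NTS exceeded the TS in 1, Arg1, beside 60.6% of 20674 genes called and 55.4% with the TS higher. In liver the TS was higher in 6 members (Cps1, Otc, Ass1, Pcx, Pck1 and Fbp1) and the NTS in 1, Arg2, beside 56.4% called and 50.4% with the TS higher. The log2 ratio of TS to NTS was 3.73 ± 0.63 for Ass1 (adjusted p = 0.00103), 3.20 ± 0.88 for Cps1 (adjusted p = 0.0132) and 2.51 ± 0.19 for Pcx (adjusted p = 1.1e-05) in liver. In kidney it was 3.81 ± 0.64 for Ass1, 5.40 ± 1.27 for Asl and 0.98 ± 0.19 for Pcx. In lung 4 members were higher on the TS and 2 (Arg1 and Arg2) on the NTS, beside 64.5% of all genes called, and in spleen again 4 and 2 (Arg1 and Arg2), beside 62.9%. The median log2 ratio of the members was 1.95 in kidney and 2.59 in liver, and of all genes 2.54 and 1.92. Leaving out either liver library ended the liver calls of Cps1 (3.04 and 3.36), Otc (3.28 and 3.78) and Pck1 (2.55 and 2.87), leaving out liver 2 that of Fbp1 (2.38), and the kidney calls of Otc, Pck1 and G6pc were lost without either liver library and without kidney 2, kidney 1 or 2, and kidney 1, respectively.

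The arginases were the members called with more repair on the NTS than on the TS. Arg1 had 21.7 and 31.8 CPM per 1000 GG on the NTS in spleen, 20.3 and 17.3 in kidney, 15.9 and 19.2 in lung, and 14.8 and 15.9 in liver, a level that its TS reached in liver only. The share of its reads on the TS was 52.7% and 57.7% in liver, against 0.699% and 2.13% in kidney, 1.63% and 4.45% in lung, and 4.86% and 3.57% in spleen. Arg2 had 13.2 to 19.95 CPM per 1000 GG on the NTS over all 8 libraries, and its TS share was 34.9% and 37.6% in kidney, against 4.19% and 9.69% in spleen, 4.91% and 6.48% in liver, and 4.38% and 7.34% in lung. For each arginase the TS share was highest in the organ with its highest RNA, and that organ's libraries overlapped with no others.

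The log2 ratio of TS to NTS per GG was -5.78 ± 0.69 for Arg1 in kidney (adjusted p = 0.000123), -4.77 ± 0.63 in lung, -4.19 ± 0.62 in spleen and 0.65 ± 0.52 in liver (adjusted p = 0.334). For Arg2 it was -3.90 ± 0.47 in liver (adjusted p = 0.000142), -3.88 ± 0.47 in lung, -3.60 ± 0.48 in spleen and -0.65 ± 0.42 in kidney (adjusted p = 0.218). On the opposite strand, Med23 ends 1539 bp beyond the 3′ end of Arg1 and does not overlap it, and Arg2 overlaps the antisense gene Gm48780 over 997 bp and Vti1b over 285 bp. The part of these genes in the NTS values was not tested. Pcx, which holds all 3883 bp of Lrfn4 on its opposite strand, had NTS levels of 3.09 to 10.0 CPM per 1000 GG.

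The strand ratio itself differed between liver and kidney for 3 members, beside 5.40% of all genes. The difference in log2 ratio was 6.44 ± 0.86 for Arg1 (adjusted p = 0.0091), -3.25 ± 0.61 for Arg2 (adjusted p = 0.0248) and 1.53 ± 0.26 for Pcx (adjusted p = 0.019), whose TS share was 84.9% and 84.8% in liver and 70.2% and 61.4% in kidney. None of the 3 was called without liver 1 (6.61, -3.03 and 1.53) or liver 2 (6.32, -3.46 and 1.54), and Arg2 and Pcx were not without lung 1 or lung 2 (-3.25 and 1.53). For Asl the difference was -4.05 ± 1.57 (adjusted p = 0.193), with NTS levels of 9.60 and 9.25 CPM per 1000 GG in liver and 0 and 2.97 in kidney. Crcp starts 42 bp from the 5′ end of Asl on the opposite strand, and its part was not tested.

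**Figure D4:**
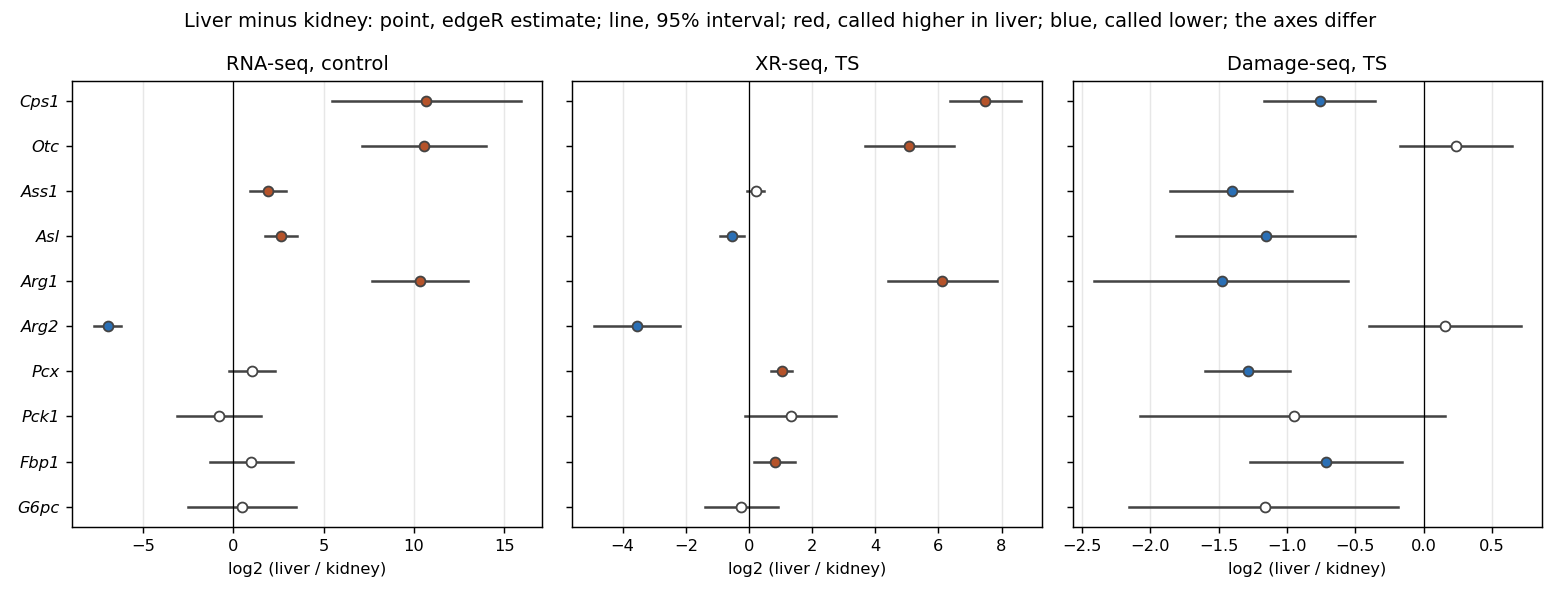
Log2 difference between liver and kidney for the 10 genes in RNA-seq of controls, XR-seq of the TS and Damage-seq of the TS, with the edgeR estimate (point), its 95% interval (line), and red or blue points for genes called higher or lower in liver. Cps1, Otc and Arg1 are higher in liver in RNA and TS repair, Arg2 is lower in both, and 6 members, Cps1 and Arg1 among them, have less remaining TS damage in liver relative to library size.

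Relative to the reads on genes of each library, damage that remained on the TS was lower in liver than in kidney for most members. The total amount of adducts in each organ cannot be read from these values. Pcx, with the most reads, had 4.08 and 4.42 CPM per 1000 GG on the TS in liver and 10.8 and 9.83 in kidney, from 116, 76, 489 and 397 reads. Ass1 had 2.72 and 2.62 in liver and 6.39 and 7.86 in kidney, Cps1 4.02 and 4.47 against 5.91 and 8.42, and Asl 2.83 and 5.24 against 8.04 and 9.03. None of these overlapped. Arg1 had 2.49 and 6.19 against 12.2 and 9.95, from 6 and 9 reads in liver, and Fbp1 5.57 and 5.80 against 10.9 and 7.63, again without overlap. Over all genes tested, 48.4% had both liver libraries below both of kidney.

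On the TS 6 members were called lower in liver, beside 33.7% of 19797 genes called and 27.1% called lower. They were Ass1 by a log2 difference of -1.41 ± 0.23 (adjusted p = 5.45e-07), Pcx by -1.29 ± 0.16 (1.88e-10), Arg1 by -1.47 ± 0.47 (0.00942), Asl by -1.15 ± 0.33 (0.00389), Cps1 by -0.76 ± 0.20 (0.0021) and Fbp1 by -0.71 ± 0.28 (0.0391). Otc (0.24 ± 0.21) and Arg2 (0.15 ± 0.28) had values on the other side of 0, and Pck1 (-0.95 ± 0.56) and G6pc (-1.16 ± 0.50), with 6 to 9 reads per liver library, did not pass, although G6pc did without either lung library (-1.17 and -1.16). The median was -1.05 over the members and -0.33 over all genes. DESeq2, whose size factors moved the median of all genes by 0.32, called 1989 genes higher and 1419 lower, against 1296 and 5371 in edgeR, and 2 of the members, Ass1 and Pcx. Cps1 (-0.49) and Fbp1 (-0.45) were also lost with TMM scaling, under which Otc was called higher in liver (0.50). Ass1 and Pcx were called whichever library was left out, and the other 4 were not: Cps1 was lost without kidney 2 (-0.49) or liver 1 (-0.67), Asl without liver 1 (-0.70), Arg1 without kidney 1 (-1.31) or liver 1 (-0.84), and Fbp1 without kidney 1 (-0.43), liver 1 (-0.68) or liver 2 (-0.74).

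Compared with the mean of lung and spleen, liver had less TS damage relative to library size in 5 members, beside 7.99% of all genes called (151 higher and 1431 lower). These members were Cps1 (-1.07 ± 0.19), Ass1 (-1.33 ± 0.22), Asl (-1.03 ± 0.32), Pcx (-1.09 ± 0.15) and Fbp1 (-1.23 ± 0.26). Asl was lost without liver 1 (-0.58), spleen 1 (-1.01) or spleen 2 (-1.06) and Fbp1 without liver 1 (-1.20). Kidney differed from lung and spleen on the TS in no member (2 members and 6566 genes at an unadjusted p under 0.05 in edgeR, and no member called by DESeq2), beside 21.6% of all genes.

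On the NTS damage was more even. Between liver and kidney 1 member was called, beside 19.2% of 20220 genes: Otc, with 9.86 and 8.84 CPM per 1000 GG in liver and 5.41 and 7.35 in kidney (0.57 ± 0.21, adjusted p = 0.042). It was lost without kidney 1 (0.36), liver 1 (0.47) or liver 2 (0.63). Between liver and the mean of lung and spleen none was called, none had an unadjusted p under 0.05 in edgeR and DESeq2 called none, beside 0.00989% of all genes. Kidney differed from lung and spleen on the NTS in 3 members, beside 21.4% of all genes, with Cps1 (-0.50 ± 0.16) and Otc (-0.61 ± 0.18) lower and Asl (0.66 ± 0.23) higher. All 3 were lost without kidney 1 (-0.20, -0.40 and 0.53), Cps1 also without spleen 1 (-0.38) and Asl without spleen 1 (0.62) or spleen 2 (0.72).

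The share of Damage-seq reads on the TS needs no scaling between libraries. For Cps1 it was 27.3% and 31.97% in liver and 50.5% and 48.0% in kidney, for Ass1 25.3% and 22.0% against 35.3% and 46.7%, and for Pcx 28.7% and 29.2% against 46.0% and 45.4%. For each of the 3 genes the liver libraries were the lowest of the 8, as they also were for the median gene. The share of all genes with that order was not counted. For Otc it was 48.7% and 45.8% in liver and 53.1% and 53.5% in kidney, and for Arg2 54.7% and 56.2% against 51.5% and 52.0%. Reads of all 10 members together had a TS share of 32.7% and 34.3% in liver, 44.6% and 47.3% in kidney, 48.3% and 47.0% in lung, and 47.9% and 49.2% in spleen. The median gene was at 43.1% in both liver libraries and between 44.6% and 46.4% in the libraries of the other organs.

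**Figure D5:**
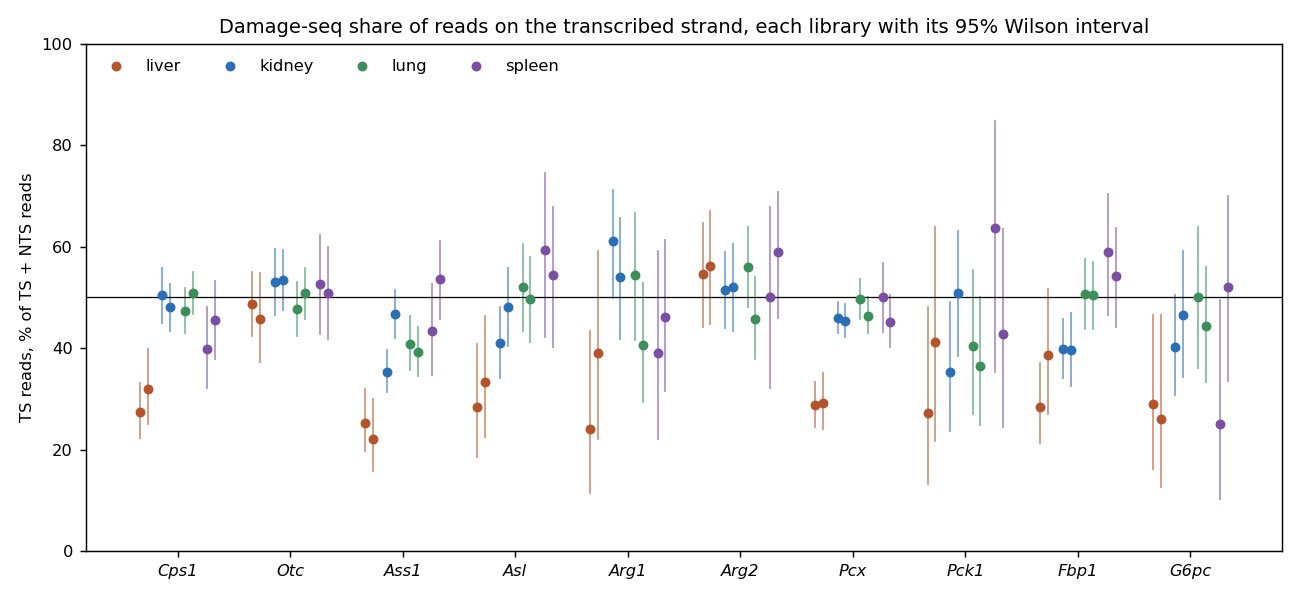
Share of Damage-seq reads on the TS (% of TS and NTS reads) for each gene and library, with 95% Wilson intervals that cover counting error only, and a line at 50%. The liver libraries of Cps1, Ass1 and Pcx are the lowest of the 8 for each gene, as they are for the median gene. Those of Otc and Arg2 lie between 45.8% and 56.2%.

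Per GG, the TS held less damage than the NTS in 6 members in liver, beside 33.6% of 20831 genes called and 32.7% called lower on the TS. The log2 ratio was -1.74 ± 0.21 for Ass1 (adjusted p = 1.32e-11), -1.37 ± 0.33 for Asl (0.000289), -1.30 ± 0.49 for G6pc (0.0259), -1.27 ± 0.14 for Pcx (4.71e-14), -1.19 ± 0.19 for Cps1 (3.92e-08) and -1.08 ± 0.27 for Fbp1 (0.000608), and the median was -1.13 over the members and -0.35 over all genes. Asl (-1.20), Fbp1 (-0.67) and G6pc (-1.42) were lost without liver 1 and G6pc (-1.21) without liver 2. In kidney 2 members were called, both lower on the TS, beside 21.3% called and 20.9% called lower: Ass1 (-0.61 ± 0.15, adjusted p = 0.00125) and Fbp1 (-0.61 ± 0.21, adjusted p = 0.0209). Without kidney 1 neither was called (-0.26 and -0.62), and without kidney 2 Fbp1 was not (-0.60).

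In lung 1 member was called, Ass1 (-0.65 ± 0.16, adjusted p = 0.000598), beside 28.6% of all genes, and in spleen none was, with none at an unadjusted p under 0.05 in edgeR and DESeq2 not run on the strand ratio, beside 13.7%. The strand ratio of damage differed between liver and kidney in 3 members, all with a lower ratio in liver, beside 9.04% of all genes called and 8.75% called lower. These were Cps1 (-1.23 ± 0.24, adjusted p = 9.37e-05), Ass1 (-1.13 ± 0.27, adjusted p = 0.00162) and Pcx (-1.05 ± 0.17, adjusted p = 2.31e-06). Cps1 was lost without liver 1 (-1.04) and Ass1 without kidney 2 (-0.80) or liver 2 (-1.02), and Pcx was called whichever library was left out. Arg1 was at -1.57 ± 0.61 (adjusted p = 0.087), on 6 and 9 TS reads in liver.

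Other genes followed the members closely over the 14 RNA-seq samples, which fall into 4 organs, so the correlations largely compare organs. Of 19088 genes, Plg, the plasminogen gene of hepatocytes, had the log2 CPM most like that of Cps1 (Pearson's r = 0.9965), and Uox, the urate oxidase gene, that of Otc (0.9961). The closest to Ass1 was Upb1 (0.9961), to Asl Nit2 (0.9934), to Arg1 Hal, the histidine ammonia-lyase gene (0.9915), and to Arg2 Mal (0.9936). Pcx was closest to Ddah1 (0.979) and Pck1 to Slc25a48 (0.9782), both below the others. Fbp1 was closest to Habp2 (0.9977), and G6pc to Cyp4a14 (0.9971).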

How the data were processed

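Per the methods, the authors used cutadapt, BWA (genome mm10) and Picard for trimming, alignment and deduplication of Damage-seq and XR-seq reads, retained those carrying GG at the adduct position, and counted them per gene and strand (TS and NTS). RNA-seq libraries, poly-A selected with a kit that does not mark strand, were aligned with STAR and counted with featureCounts, so overlapping genes on opposite strands cannot be separated there. The authors deposited raw counts per gene, without normalization. Versions are not given in the sources used here. In each Damage-seq and XR-seq file, 1 line that names no gene was dropped. Reads were not counted by molecular identifiers, so intervals and floors cover counting error only.

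The members and lists were chosen with earlier results of these data known. The groups follow the sample labels. Of the genes, 25041 were found in GENCODE M21, from which gene positions, exon lengths and GG counts were taken. RPKM uses reads on genes and exon length. Tests used edgeR 4.0.16 in R 4.3.3 (quasi-likelihood, default filter on low counts with a minimum count of 10, Benjamini-Hochberg adjustment over all genes tested, called under 0.05). RNA-seq was tested against a log2 fold change of 0.4 with TMM scaling, per organ for cisplatin and over all groups for control organs, and the difference between responses was tested against 0. Organ contrasts of XR-seq and Damage-seq used reads on genes of both strands as library size, tested against 0. The strand ratio used each library as a block and the GG of each strand as an offset (at least 10 GG per strand). RNA-seq pairs with a chi-square over degrees of freedom of at most 3 were summed, so that the lone lung and spleen controls were assumed to vary like the cisplatin pair. The edgeR fitting functions were also run on simulated counts with large fold changes, and with another offset for the strand ratio. Smaller effects were not checked that way. Shares carry 95% Wilson intervals and floors are 3 counts. DESeq2 1.42.0, other scalings, filters, tests and offsets, the replicate number as a block, and leaving out each library were tried as alternatives. The fit without a TMM factor was added after seeing the data. All members were named, together with list genes called in RNA-seq (at most the 6 of smallest p per list), the genes with the closest log2 CPM (prior count 1), and marker lists by their sum. A member of the urea cycle partner list, Oat, was not analysed here.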

Additional observations from a re-analysis of the deposited data

Results flagged for a closer look

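Differences between liver and kidney stood out in 6 cases because the strand ratio, tested as a difference between the organs, was not the same. In Damage-seq the log2 ratio of TS to NTS was lower in liver by -1.23 for Cps1, -1.13 for Ass1 and -1.05 for Pcx. In XR-seq it was higher in liver by 6.44 for Arg1 and 1.53 for Pcx and lower by -3.25 for Arg2. Of these 6, that of Pcx in Damage-seq was called whichever library was left out. Cps1 in Damage-seq was not called without liver replicate 1 (-1.04), and Ass1 was not called without kidney replicate 2 (-0.80) or liver replicate 2 (-1.02). All 3 of XR-seq were not called without either liver library (Arg1 6.61 and 6.32, Arg2 -3.03 and -3.46, Pcx 1.53 and 1.54), and those of Arg2 and Pcx also not without either lung library (-3.25 and 1.53).

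Another 2 genes, Asl and Arg1, are given because each cisplatin library lay above both controls in spleen and below both in kidney, a pattern that 5.92% of 14837 genes share. The mean RPKM after cisplatin over that in control was 1.21 in spleen for Asl and 5.64 for Arg1, and the difference was not tested. For Arg1 the spleen libraries had 4.53 and 0.561 RPKM after cisplatin, and the first of these is the library in which the 4 hepatocyte markers sum to 348 CPM, against 0.0803 in the other and 32.2 and 11.3 in the controls. The part of those cells in the result was not tested.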

How the results depend on the processing

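Of 112 member differences called, 0 changed sign under any alternative, 68 kept the call under all of them, 93 under all but the left-out libraries and 69 under every left-out library. Each group had 2 libraries, and Damage-seq gave 4 to 489 TS reads per member and library, which limits what can be detected there. The cause of the changes below was not tested.

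In kidney after cisplatin, 1896 genes were called with no filter, 1711 against a threshold of 0, and 1 member by DESeq2 and 2 with no filter. In liver DESeq2 called 188 genes, the fit over all organs 518, and the fit with no filter 155. In lung the fit over all organs called 70 genes and 0 members, counting each control library 1606 genes and 3 members, no filter 1089 and 3, and the threshold of 0 804. In spleen DESeq2 called 85 genes, each control library as a replicate 62, no filter 58, and Arg2 was at -0.024 in the fit over all organs. For the kidney response minus that of liver, DESeq2 called 130 genes and 1 member, RLE size factors 2 genes, and no filter 197 genes and 1 member.

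The replicate numbers pair nothing in the labels. The difference between the 2 control libraries was correlated over genes with that between the 2 cisplatin libraries. The correlation was 0.642 for kidney (13418 genes), 0.519 for liver (11812), 0.242 for spleen (13769) and 0.0988 for lung (14409). Each organ has only 2 such pairs of libraries. With the replicate number as a block, 3182 genes and 4 members (Cps1, Otc and Arg1 lower and Arg2 higher) were called in kidney, 1015 genes in liver, 1914 genes and 3 members in lung, 172 genes in spleen, 47 genes in the kidney response minus that of liver, and 1 member in NTS repair of liver minus kidney. The block also ended the call of Fbp1 in TS repair of liver minus kidney (0.80).

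NTS repair of liver minus kidney had 2 members called by DESeq2 and 2 with no filter, and that of liver minus lung and spleen 4 with TMM factors. For kidney minus lung and spleen TMM factors called 3096 genes in NTS repair. In Damage-seq DESeq2 called 3408 genes and 2 members for TS and 1651 genes and 0 members for NTS in liver minus kidney, 596 genes for TS and 0 for NTS in liver minus lung and spleen, and 1943 genes for TS and 1893 genes and 1 member for NTS in kidney minus lung and spleen. TMM factors called 2 members for NTS in liver minus kidney and 3 for TS in kidney minus lung and spleen, and no filter 4 genes for NTS in liver minus lung and spleen. Uncalled values that changed sign were those of G6pc in TS repair of liver minus kidney (0.13 with DESeq2, 0.12 with TMM) and Ass1 in that of kidney minus lung and spleen (-0.079 and -0.094), and G6pc in control RNA of liver minus kidney without a TMM factor (-0.35).

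Leaving out each library in turn gave, after cisplatin, 123 to 2005 genes and 0 to 2 members in kidney, 22 to 1840 genes in liver, 0 to 339 genes and 0 to 1 members in lung, 22 to 97 genes and 0 to 2 members in spleen, and 0 to 7 genes for kidney minus liver. For liver minus kidney it gave 903 to 5528 genes and 0 to 3 members in NTS repair, 2653 to 7141 genes and 2 to 7 members in TS damage, and 598 to 4309 genes and 0 to 2 members in NTS damage. For liver minus lung and spleen it gave 2377 to 6715 genes and 2 to 8 members in NTS repair, 382 to 1658 genes and 3 to 6 members in TS damage, and 0 to 5 genes in NTS damage. For kidney minus lung and spleen it gave 3172 to 8214 genes in NTS repair, 2200 to 4539 genes and 0 to 2 members in TS damage, and 1419 to 4591 genes and 0 to 4 members in NTS damage. The strand ratio of repair was called for 5 to 8 members in kidney, 7713 to 13227 genes and 3 to 9 members in liver, and 1 to 4846 genes and 0 to 4 members in their difference. That of damage was called for 148 to 5184 genes and 0 to 3 members in kidney, 4018 to 7322 genes and 3 to 6 members in liver, 692 to 3235 genes in spleen, and 438 to 2328 genes in liver minus kidney.

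Uncalled values that changed sign with a library left out ran, after cisplatin in kidney, from -0.31 to 0.24 for Ass1 and -0.14 to 0.020 for Fbp1, and in liver from -0.30 to 0.75 for Asl, -0.013 to 0.35 for Arg1, -0.0074 to 0.36 for Pck1 and -0.092 to 0.49 for G6pc. In lung they ran from -0.0084 to 0.091 for Asl and -0.37 to 0.86 for Arg1. In spleen they ran from -7.48 to 4.14 for Cps1, -6.08 to 3.78 for Otc, -0.085 to 0.086 for Ass1, -0.38 to 0.28 for Arg2, -0.83 to 1.38 for Pcx, -0.45 to 4.53 for Pck1, -1.50 to 5.09 for Fbp1 and -5.10 to 6.95 for G6pc. For the kidney response minus that of liver they ran from -0.076 to 0.82 for Ass1, -0.85 to 0.21 for Asl and -0.41 to 0.39 for Pcx. In TS repair they ran from -0.52 to 0.086 for G6pc (liver minus kidney), -0.63 to 0.27 for Arg2 (liver minus lung and spleen), and -0.89 to 3.09 for Cps1, -0.12 to 0.12 for Ass1 and -0.0086 to 0.21 for Asl (kidney minus lung and spleen). In TS damage of liver minus kidney Arg2 ran from -0.097 to 0.43.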
